A study of Mus musculus with 24 samples.

Results

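C2C12 myotubes that received hypoxia and electrical stimulation together were compared with myotubes that received neither. The combined group, labelled 1STIM and called 1 % STIM, and the baseline group, labelled 5CTRL and called 5 % CTRL, were chosen by their sample labels and hold 6 libraries each, 12 of the 24 libraries of the series. C2C12 is a mouse myoblast line that fuses into contracting myotubes; all cultures were wild type, came from this 1 line, had been differentiated under 5 % O2 and were taken at day 5. The 5 % CTRL cultures stayed at 5 % O2 without stimulation, whereas the 1 % STIM cultures spent 2 h at 1 % O2 and then received bouts of electrical pulses. The groups with a single exposure, 1 % CTRL (2 h at 1 % O2, no stimulation) and 5 % STIM (stimulated after 2 h at 5 % O2), again with 6 libraries each, gave the single effects. The study examined how O2 supply alters the response of muscle cells to contraction, and the comparison described here asks what the pair of exposures did together and whether that equalled the sum of what each did alone.

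When O2 falls, the prolyl hydroxylases that mark HIF1α and HIF2α for degradation slow down, and the stabilised factors bind the short motif ACGTG or GCGTG in promoters and enhancers of genes for glucose uptake, glycolysis, angiogenesis and O2 sensing. Contraction releases Ca2+ from the sarcoplasmic reticulum, which activates calcineurin and the kinases that phosphorylate CREB, the factor that binds the CRE motif. It also activates NF-κB, which drives chemokine and cytokine genes, so that muscle is known as a source of secreted factors during exercise.

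Libraries held 26541858 to 28173745 reads. One library stood apart. In 1 % CTRL replicate 1, abundance relative to the other libraries rose with gene length (slope 0.0945, against -0.0367 to -0.0125 in the other 5 libraries of its group), and it enters the sum of the single effects but not the comparison of 1 % STIM with 5 % CTRL. In 1 % STIM replicate 3 the slope was 0.055. The 7 myotube markers were abundant throughout and adipocyte markers were close to absent, with a summed normalized count of at most 10.3 and with Plin1 and Cidec at 0 in every library. The summed myotube markers lay between 413408 and 452322 in 5 % CTRL and between 354021 and 397181 in 1 % STIM, where 5 of the 7 were lower and none was higher. In bulk RNA, fewer cells of a type and less RNA per cell cannot be told apart. Medium was exchanged before and after stimulation, and whether the unstimulated cultures had the same exchanges is not given in the sources used here, nor is it given whether they spent the same total time at 1 % O2. Stimulation and medium exchange therefore cannot be told apart, and neither can stimulation and time at 1 % O2 in 1 % STIM against 1 % CTRL and in each departure from the sum.

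Combined exposure moved most of the genes tested. Of 14541 genes tested, 4251 were higher and 4316 were lower in 1 % STIM than in 5 % CTRL (58.9 % of genes called, 29.2 % higher and 29.7 % lower; limma, Benjamini-Hochberg adjusted p under 0.05). Most differences were small: 538 genes (3.7 %) rose by more than 1 on the log2 scale and 68 (0.468 %) by more than 2, while 268 (1.84 %) and 24 (0.165 %) fell by as much. In 5420 genes (37.3 %) the 6 libraries of one group did not overlap with the 6 of the other. With libraries scaled to equal totals in place of the authors' size factors, the median gene rose by 0.10 on the log2 scale. Then 6131 genes were higher and 2968 lower, so that 67.4 % of the calls were higher, in place of 49.6 %. Small differences below therefore depend on the scaling.

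The chemokines Cxcl1 and Cxcl5 led the genes with the largest rises, with log2 difference 4.70, SE 0.43, adjusted p = 4.34e-09 and log2 difference 4.11, SE 0.19, adjusted p = 9.64e-18 (limma). They were followed by Slc2a3, which encodes the glucose transporter GLUT3 (log2 difference 3.60), the zinc finger gene Zfp395 (3.31), the vasodilator peptide gene Adm (3.23), the serine/threonine kinase gene Pim1 (3.08), the glycogen-targeting phosphatase subunit gene Ppp1r3b (2.92), the pro-apoptotic gene Bmf (2.68), the transcription factor gene Trerf1 (2.56) and the linker histone gene Hist1h1d (2.52). Among the largest falls were those of Arc, a synaptic-activity early gene (log2 difference -3.13), Errfi1, a feedback inhibitor of the EGF receptor (-2.44), the host transcript of a microRNA cluster Mir17hg (-2.10; 15.2 % of its exons lie in another gene of the same strand), the cytokine gene Tnfsf15 (-2.08), Rhpn2 (-2.08) and the transcription factor gene Sox11 (-2.04). The mitochondrial gene mt-Co3 also met the rule (-2.46, adjusted p = 0.0466), but 99.9 % of its 75-base windows occur in other genes and its value in 1 % STIM ran from 2.92 to 1244, so it is uncertain.

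Whether the exposures added up was tested for each gene as the departure from the sum, that is, the difference between 1 % STIM and 5 % CTRL minus the effect of 1 % O2 alone and the effect of stimulation alone, all on the log2 scale. On this scale, additivity means that the fold changes multiply. The departure was called in 1645 genes (11.3 %), of which 855 (5.88 %) lay above and 790 (5.43 %) below the sum (limma, adjusted p under 0.05). Departures were mostly modest, with a median absolute value of 0.115 over all genes and 0.263 over those called. Among the 63 called departures larger than 1, however, 50 lay below the sum and 13 above it. Without 1 % CTRL replicate 1, 2316 departures were called. On the linear scale, where additivity means that the changes in normalized count add up, 1381 were called, and those of Ddit4, Msmo1, Stard4, Per2, Sox11, Angptl4, Acot2, Myh3 and Rpl36a-ps3 described below were not among them. With voom on whole reads those of Adm, Apln, Zfp395, Acot2 and Rpl36a-ps3 were not called.

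**Figure D1:**
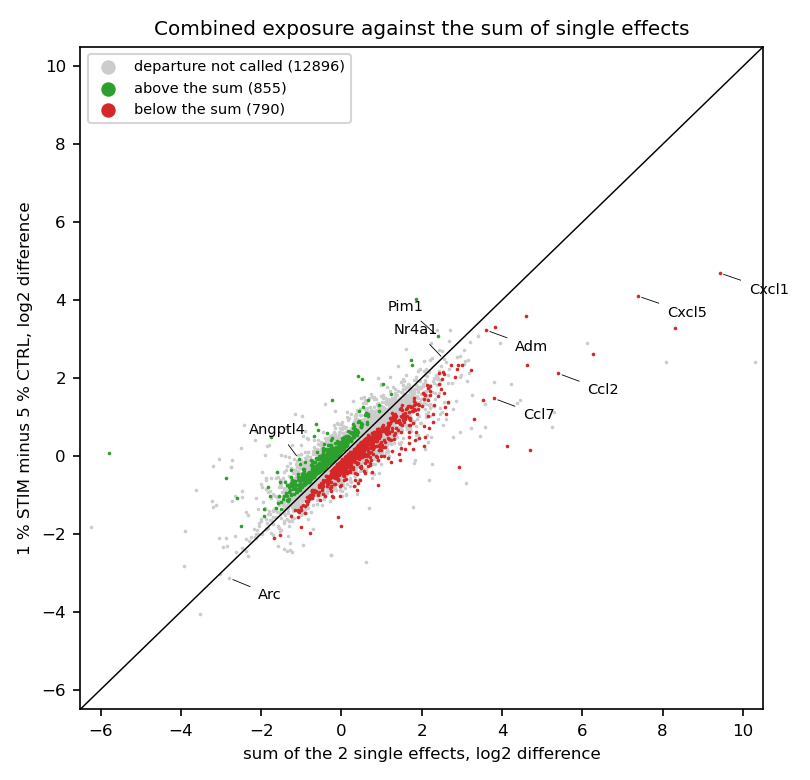
Each point is 1 of the 14541 genes, with the sum of the effects of 1 % O2 alone and of stimulation alone on the x axis and the difference between 1 % STIM and 5 % CTRL on the y axis, both as log2 differences; the diagonal marks equality and coloured points are called departures. The chemokine genes Cxcl1, Cxcl5 and Ccl2 lie far below the diagonal on the right, at departures of -4.72, -3.28 and -3.28.

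The departure can equally be read as the change in the response to stimulation when O2 was low. Stimulation at 5 % O2 (5 % STIM against 5 % CTRL) called 3115 genes (21.4 %) and stimulation at 1 % O2 (1 % STIM against 1 % CTRL) called 3245 (22.3 %), with no library in common. Of these calls 44.0 % and 51.4 % were higher, or 62.1 % and 62.4 % with equal totals. The calls shared a gene and a direction in 1275 cases, which is 40.9 % of the first list and 39.3 % of the second, while 133 genes were called in opposite directions. Across genes, which are not independent replicates, Pearson's r between the responses was 0.358. Among the 1372 genes (9.44 %) that stimulation raised at 5 % O2, the median log2 difference was 0.28 there and 0.16 at 1 % O2, and among the 1743 that it lowered it was -0.17 and -0.07. Among the 1668 genes that stimulation raised at 1 % O2, in turn, the median was 0.23 there and 0.10 at 5 % O2, and among the 1577 that it lowered it was -0.23 and -0.09. Each set was larger in the comparison that chose it, so these medians do not show a weaker response at either O2 level.

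The response to 1 % O2 can be compared in the same way without and with stimulation. It was called in 8708 genes without stimulation (59.9 %) and in 8346 with it (1 % STIM against 5 % STIM, 57.4 %), of which 49.0 % and 50.4 % were higher, or 62.7 % and 63.2 % with equal totals. The same gene and direction came up 6685 times, 76.8 % of the first list and 80.1 % of the second, with r = 0.771 across genes. The median of the 4271 genes raised without stimulation was 0.39, and 0.32 for these genes with it, whereas the 4210 genes raised with stimulation had medians of 0.35 with it and 0.34 without.

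**Figure D2:**
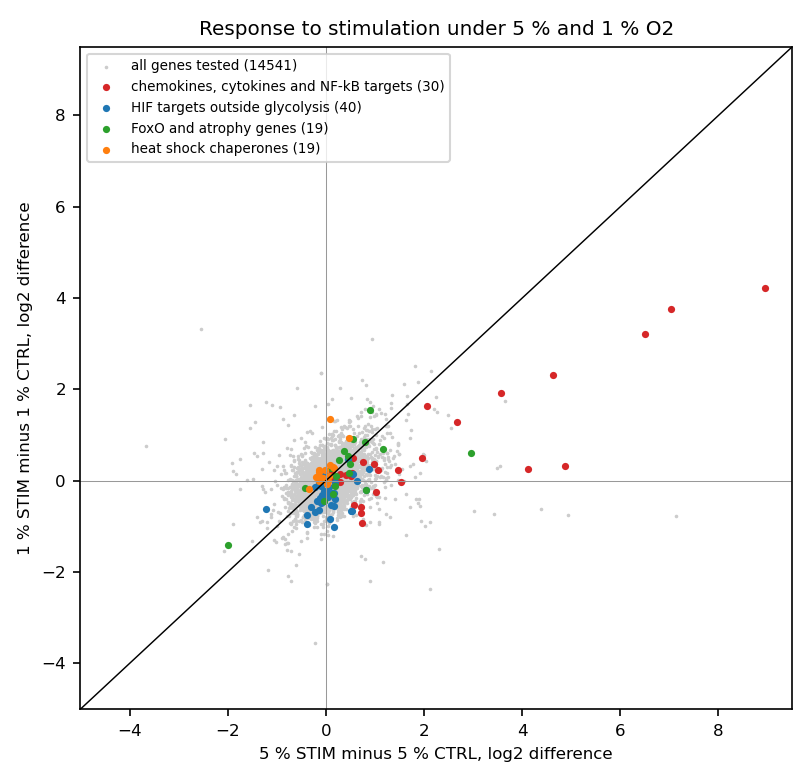
The response to stimulation at 5 % O2 (x axis, log2 difference between 5 % STIM and 5 % CTRL) is plotted against that at 1 % O2 (y axis, log2 difference between 1 % STIM and 1 % CTRL) for the 14541 genes, with selected gene lists in colour. Most of the chemokine, cytokine and NF-κB genes lie to the right and below the diagonal, with a median of 0.87 on the x axis and 0.22 on the y axis, or 0.74 and 0.17 without the 5 members that passed the minimum count only through 5 % STIM.

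Of the 21 lists, that of chemokines, cytokines and NF-κB targets had the lowest median departure from the sum. Cxcl1 (chr5:90891241-90893115, GRCm38), a ligand that draws neutrophils through the receptor CXCR2, had a lowest, median and highest normalized count of 0, 6.69 and 12.6 in 5 % CTRL and 5.71, 7.30 and 13.6 in 1 % CTRL. After stimulation at 5 % O2 the values were 2526, 3112 and 4673, and in 1 % STIM they were 138, 151 and 209. The combined group thus stood clear of both unstimulated groups and clear of stimulation alone, without overlap on either side. The departure from the sum was -4.72, SE 0.61, adjusted p = 1.73e-05 (95 % interval -5.99 to -3.46, limma). Cxcl5, another CXCR2 ligand, followed the same order, with medians of 7.69, 8.20, 985 and 137 in 5 % CTRL, 1 % CTRL, 5 % STIM and 1 % STIM (departure -3.28, SE 0.27, adjusted p = 3.50e-10).

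The monocyte attractants Ccl2 and Ccl7 were lower at 1 % O2 in both unstimulated and stimulated cultures. Ccl2 had lowest, median and highest values of 16.3, 19.1 and 31.4 in 5 % CTRL, 6.71, 9.08 and 13.6 in 1 % CTRL, 1632, 1894 and 2680.2 in 5 % STIM and 69.2, 100.5 and 116 in 1 % STIM (departure -3.28, SE 0.25, adjusted p = 1.15e-10). Ccl7 had a median of 35.2 at baseline, 893 after stimulation alone and 108 after both exposures (departure -2.32, SE 0.20, adjusted p = 4.03e-10). Stimulation still raised these genes at low O2, to levels far under those reached at 5 % O2. Cxcl2 and Ccl20, which attract neutrophils and lymphocytes, passed 3 reads mainly in 5 % STIM. Cxcl2 was at 0 in all 12 unstimulated libraries, at 11.1 to 27.6 in 5 % STIM and at 0 to 1.93 in 1 % STIM, and Ccl20 was at 17.4 to 66.4 in 5 % STIM and at no more than 1.04 elsewhere. A count of 0 allows up to 3 reads in a library, so 1 % STIM could not be told from 0 for these chemokines.

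Lif fell with stimulation at 1 % O2 (log2 difference against 1 % CTRL -0.91), and Bcl3 was not called (-0.03, adjusted p = 0.924). Lif, a cytokine of the IL-6 family that contracting muscle secretes, had lowest, median and highest values of 824, 890.2 and 1022 in 5 % CTRL, 962, 1015 and 1036 in 1 % CTRL, 1377, 1428 and 1833 in 5 % STIM and 486, 519.6 and 617 in 1 % STIM. Each exposure alone thus raised it, and under both it lay below every library of the other groups (log2 difference -0.75, SE 0.06, adjusted p = 2.99e-11 against 5 % CTRL; departure -1.65, SE 0.09, adjusted p = 8.79e-14). Bcl3, a nuclear partner of NF-κB subunits, had a median of 38.5 at baseline, 109.7 after stimulation alone and 35.6 after both, so that 1 % STIM overlapped with 5 % CTRL (adjusted p = 0.569; departure -1.55, SE 0.20, adjusted p = 1.57e-06).

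Members that passed the minimum count only through 1 group had to differ between groups, and in this list Cxcl2, Ccl20, Cxcl10, Birc3 and Traf1 passed it only through 5 % STIM. Without these 5, 19 of 25 lay below the sum and 0 above it, with a median departure of -0.61, and stimulation raised 24 at 5 % O2 and 12 at 1 % O2. In the other lists only Stc1, a HIF target, and Klf15, a FoxO target, passed it only through 1 group. Of all 30 chemokine, cytokine and NF-κB target genes tested, 21 lay below the sum and 0 above it, with a median departure of -1.17 against 0.01 over all genes. Stimulation at 5 % O2 raised 28 and lowered 0 (median 0.87), stimulation at 1 % O2 raised 14 and lowered 4 (median 0.22), and in the comparison of 1 % STIM with 5 % STIM 29 were lower and 0 higher. Against baseline, 15 were higher and 9 lower, or 13 and 9 of 25 without the 5 named above. Of all genes, 29.2 % were higher and 29.7 % lower, so the share of the 30 that was lower was near that of all genes. Among the inhibitors that NF-κB itself induces, Nfkbia, which encodes IκBα, rose against 5 % CTRL by 0.72 with a departure of -1.46, and Tnfaip3, which encodes the ubiquitin-editing enzyme A20, rose by 0.40 with a departure of -1.43. The interferon-response factor Irf1 had a departure of -1.28. The 5 macrophage markers summed to 64.5 to 109.8 in 5 % CTRL and 61.0 to 80.9 in 1 % STIM. Of these, 3 were tested, since Ptprc and Adgre1 did not reach the minimum count. Of the list itself, Tnf and Icam1 did not reach it.

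To show the sequence context of these genes, the 250 bases upstream of the RefSeq start (GRCm38.p6) are given for the list members furthest below the sum that have a single start in the table, with matches to the 10-base NF-κB site in capitals, searched on both strands. All windows are written 5′ to 3′ along the gene. The Cxcl1 window is chr5:90890995-90891244 (plus strand) and the Ccl20 window is chr1:83116516-83116765 (plus strand).
Cxcl1: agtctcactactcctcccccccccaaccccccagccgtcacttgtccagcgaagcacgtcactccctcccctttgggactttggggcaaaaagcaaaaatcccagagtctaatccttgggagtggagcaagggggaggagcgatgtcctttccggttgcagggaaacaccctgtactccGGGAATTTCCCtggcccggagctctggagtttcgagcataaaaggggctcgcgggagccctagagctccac
Ccl20: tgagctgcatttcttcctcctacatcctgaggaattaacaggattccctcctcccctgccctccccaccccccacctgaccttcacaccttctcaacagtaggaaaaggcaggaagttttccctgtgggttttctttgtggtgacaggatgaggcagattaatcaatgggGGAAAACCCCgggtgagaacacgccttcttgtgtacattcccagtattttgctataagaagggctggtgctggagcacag
The Cxcl1 window holds 2 overlapping matches and the Ccl20 window holds 1. Such a match was present in 72.7 % of the 22 windows of the list and in 8.70 % of the 10524 windows of all genes tested. It is a match of letters, and binding was not measured. Because the list names NF-κB targets, its share is not independent of how the members were chosen. Ccl20 passed the minimum count only through 5 % STIM, so its place among the members furthest below the sum follows in part from that filter.

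**Figure D3:**
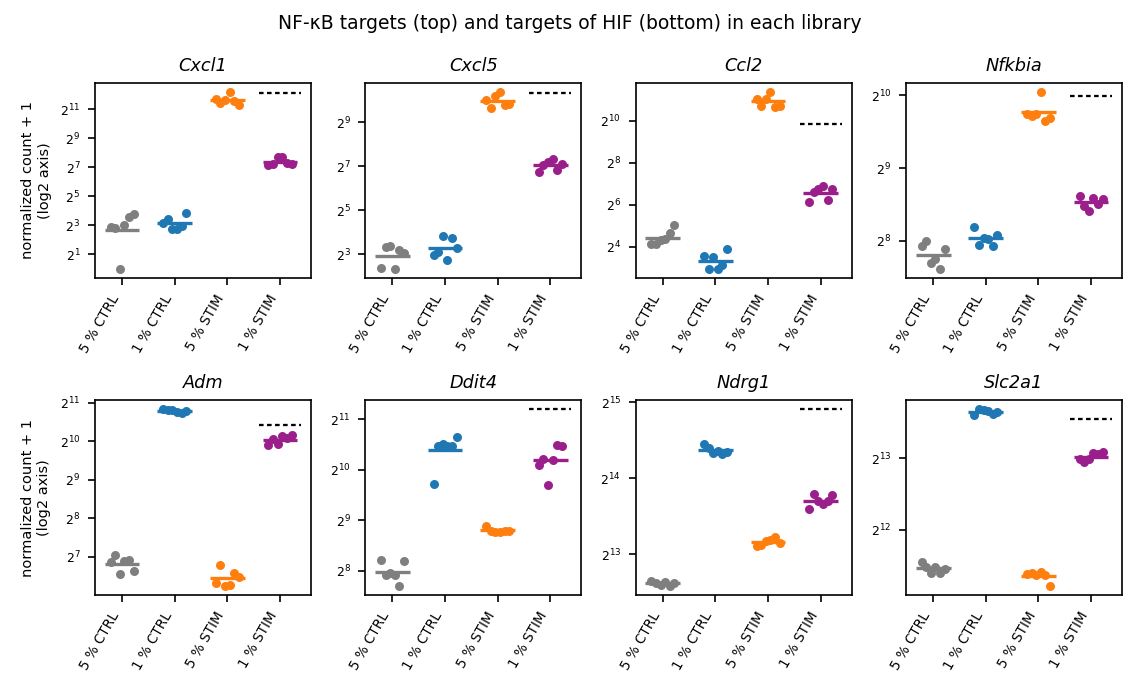
Normalized counts plus 1 of single libraries (y axis, log scale of base 2) are shown for the 4 groups in each panel, with a bar at the group mean on the log2 scale and a dashed line at the level that the sum of the single effects predicts for 1 % STIM. In the chemokine panels the 1 % STIM libraries, at 138 to 209 for Cxcl1 and 69.2 to 116 for Ccl2, lie far under the dashed line, and in the panels of HIF targets, with departures of -0.37 to -1.21, they lie under it by less.

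Most targets of HIF outside glycolysis rose under combined exposure, and most departed below the sum. Adm (chr7:110627661-110629820), which encodes the vasodilator adrenomedullin, had lowest, median and highest values of 93.2, 116 and 131 in 5 % CTRL, 1699, 1771 and 1830.4 in 1 % CTRL, 74.7, 83.2 and 108 in 5 % STIM and 959.6, 1083 and 1152 in 1 % STIM. The combined group stood between the unstimulated groups and overlapped with neither (departure -0.37, SE 0.11, adjusted p = 0.029). This call was lost in the fits without 5 % CTRL replicate 3, 5 % STIM replicate 2 or 5, or 1 % STIM replicate 1 or 3. Zfp395 had medians of 59.7, 929, 51.4 and 580.2 in the same order (departure -0.50, SE 0.13, adjusted p = 0.0082).

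Departures of about 1 or more were found for the HIF targets Ddit4, Ndrg1 and Stc2. Ddit4, which encodes the mTORC1 inhibitor REDD1, had lowest, median and highest values of 207, 244 and 295 in 5 % CTRL, 844, 1422 and 1600.5 in 1 % CTRL, 432, 442 and 472 in 5 % STIM and 826, 1174 and 1431 in 1 % STIM (departure -1.01, SE 0.20, adjusted p = 0.00145); the value of 1422 in 1 % CTRL includes replicate 1 at 844. Each exposure alone raised Ddit4, and 1 % STIM overlapped with 1 % CTRL. Ndrg1, a stress-responsive gene of differentiation, rose against baseline by 1.08 and fell short of the sum (departure -1.21, SE 0.04, adjusted p = 1.54e-20). Stc2, which encodes a secreted glycoprotein, was lower in 1 % STIM than in each other group (log2 difference -0.42 against 5 % CTRL; departure -1.17).

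Across the list, in which Hif3a did not reach the minimum count, 31 of 40 genes tested rose and 5 fell against 5 % CTRL, with a median of 0.63 where the sum had a median of 0.93. The departure was below the sum in 28 and above it in 1 (5.43 % and 5.88 % of all genes), with a median of -0.37. The gene above the sum was Ankrd37, a small ankyrin-repeat gene, at a departure of 0.59, of which 26.4 % of the exon length lies opposite other genes and was counted without strand. Adding stimulation at 1 % O2 lowered 30 of the genes and raised 3. Egln3, which encodes the prolyl hydroxylase PHD3, rose by 1.03 (departure -0.46). Kdm3a, a histone demethylase gene, rose by 1.41 without a called departure (0.12, limma adjusted p = 0.136). Vegfa, the main angiogenic ligand, was 0.09 above baseline and departed by -0.59; its mean was 11375 in 1 % CTRL and 8587 in 1 % STIM. Of the 17 angiogenic ligands, 6 rose and 9 fell, against 29.2 % and 29.7 % of all genes. Apln, which encodes apelin, rose most after Adm, by 2.33 (departure -0.40, SE 0.12, adjusted p = 0.0267, not called without 1 % STIM replicate 1 or 3).

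The upstream windows of the HIF targets with the largest rises and a single RefSeq start are printed with the hypoxia response core, ACGTG or GCGTG on either strand, in capitals. Adm lies at chr7:110627407-110627656 (plus strand) and Ankrd37 at chr8:45999851-46000100 (minus strand), the latter 5857 bases from the start of the gene in the annotation used for coordinates.
Adm: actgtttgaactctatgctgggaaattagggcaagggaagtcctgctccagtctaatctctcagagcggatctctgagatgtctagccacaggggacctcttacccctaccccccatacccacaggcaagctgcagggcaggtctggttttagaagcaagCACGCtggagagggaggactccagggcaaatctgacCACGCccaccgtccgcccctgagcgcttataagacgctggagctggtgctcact
Ankrd37: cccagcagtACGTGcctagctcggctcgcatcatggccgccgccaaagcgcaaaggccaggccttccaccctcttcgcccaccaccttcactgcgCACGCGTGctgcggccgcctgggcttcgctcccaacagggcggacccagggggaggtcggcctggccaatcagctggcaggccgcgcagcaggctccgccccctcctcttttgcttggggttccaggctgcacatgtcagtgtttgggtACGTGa
The core occurs 2 times in the Adm window and 4 times in the Ankrd37 window. It was found in 78.6 % of the 28 windows of the list, in 74.1 % of the 27 glycolysis windows and in 56.5 % of the windows of all genes tested. Across the other lists the share ran from 31.0 % of 29 sarcomere windows to 91.7 % of 12 windows of CREB and calcineurin targets. In 15 circadian windows it was 86.7 %, so a high share is not particular to HIF targets. Among genes called with a rise over 1, the core was in 58.3 % of 343 windows. It is a match of letters only, and the share in the list of HIF targets is not independent of how its members were chosen.

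In the list of glycolysis and glucose uptake, Slc2a3, with few reads at 5 % O2, had lowest, median and highest values of 5.24, 9.38 and 12.3 in 5 % CTRL, 205, 219 and 244 in 1 % CTRL, 3.06, 11.1 and 14.3 in 5 % STIM and 101, 113 and 136 in 1 % STIM. Stimulated cultures at 1 % O2 reached about 113 where unstimulated ones reached 219, and the groups did not overlap. The departure was -0.99, SE 0.32, adjusted p = 0.0396, a call that was lost in 14 of the 24 fits that left out 1 library. The main transporter gene Slc2a1 rose by 1.57 (departure from the sum -0.52), hexokinase 2 (Hk2) by 0.64 (departure -0.61) and Ldha by 0.16 (departure -0.10, not called). Pfkfb3, the kinase that makes the activator of phosphofructokinase, rose by 1.94 and departed by 0.13 (adjusted p = 0.179; on the linear scale it was called below the sum, at -0.31 of the mean, adjusted p = 5.16e-05). Of 29 genes, 18 rose and 7 fell against baseline (median 0.16), against 29.2 % and 29.7 % of all genes. The insulin-responsive transporter gene Slc2a4 and the muscle isoform Pgam2 were among those that fell. The departure lay below the sum in 14 and above it in 0, against 5.43 % and 5.88 % of all genes.

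Of the 21 lists, that of DNA replication had the largest share of genes that rose. Cdc6, which loads the replicative helicase, had lowest, median and highest values of 51.9, 78.2 and 88.0 in 5 % CTRL, 580.4, 599.8 and 788 in 1 % CTRL, 52.6, 68.8 and 80.8 in 5 % STIM and 363, 375 and 428 in 1 % STIM. It rose by 2.34 with a departure of -0.56, SE 0.15, adjusted p = 0.00979, and 1 % CTRL replicate 1 stood above the other libraries of its group at 788. The chromatin assembly factor gene Chaf1b rose by 2.00 and the helicase subunit gene Mcm5 by 1.81. Of 34 genes of DNA replication, 32 rose and 1 fell (median 0.84), the gene that fell being E2f2 (-1.36). The departure lay below the sum in 8 and above it in 1 (18 and 1 with the length slope as a covariate), and stimulation at 1 % O2 lowered 27 and raised 0. Of 28 mitotic genes, 8 rose, a share near the 29.2 % of all genes, and 4 fell. With equal totals 13 rose and 2 fell, against 6131 and 2968 of all 14541 genes. On the authors' scale Top2a was at 0.69, Nusap1 at 0.61 and Mki67 at 0.00 (limma adjusted p = 0.984).

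A set of 973 genes (6.69 %) were called in the same direction in 1 % STIM against each of the other 3 groups, 459 above all of them (3.16 %) and 514 below (3.53 %). With equal totals, 730 lay above and 365 below. Pim1, which encodes a pro-survival kinase, had lowest, median and highest values of 96.7, 107 and 122 in 5 % CTRL, 134, 169 and 182 in 1 % CTRL, 326, 398 and 423 in 5 % STIM and 738, 927 and 1035 in 1 % STIM. The combined group lay above every library of the other groups, and above the sum (departure 0.68, SE 0.12, adjusted p = 1.23e-04; 14.5 % of its exon length lies opposite another gene). Nr4a1, an orphan nuclear receptor and early gene that exercise induces in muscle, had values of 282, 300.2 and 327, 679.5, 734 and 828, 679, 729 and 786 and 1474, 1676 and 2052 in the same order of groups. The single exposures raised it to overlapping levels, and 1 % STIM lay above both (log2 difference 2.48, SE 0.06, adjusted p = 1.61e-26; departure -0.07, 95 % interval -0.24 to 0.10, adjusted p = 0.651; on the linear scale the departure was called above the sum, at 0.62 of the mean, adjusted p = 3.27e-04).

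Further genes above each other group were Pik3ip1, an inhibitor of PI3 kinase, with medians of 56.9, 103, 147 and 320.0 in 5 % CTRL, 1 % CTRL, 5 % STIM and 1 % STIM, and Ddit4l, a muscle relative of Ddit4, with medians of 29.0, 46.8, 36.1 and 110.3. Ddit4l lay above the sum (departure 0.82, SE 0.21, adjusted p = 0.00826), whereas Ddit4 lay below it. The TNF receptor family gene Tnfrsf19 rose by 1.25 and also lay above the sum (departure 0.72, SE 0.13, adjusted p = 2.64e-04). Atcayos, a transcript opposite Atcay and Nmrk2, rose by 2.46 (departure 0.71); 16.0 % of its exons overlap those genes and were counted without strand. Bmf and Hist1h1d, at 2.68 and 2.52, had no called departure (adjusted p = 0.526 and 0.333).

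Among the targets of CREB and calcineurin, the order of groups varied. Of 17 tested, 10 rose and 4 fell against baseline (median 0.37), against 29.2 % and 29.7 % of all genes. Of the 17, 7 lay above each other group and 2 below, against 3.16 % and 3.53 % of all genes. Above were Nr4a1, the phosphodiesterase genes Pde4b (1.82 against 5 % CTRL) and Pde4d (0.65), the small GTPase gene Gem (1.61), Ppargc1a (1.46), which encodes the mitochondrial biogenesis coactivator PGC-1α, Nr4a3 (1.42) and the MAP kinase phosphatase gene Dusp1 (0.88). Below were Arc and the clock gene Per2. Ppargc1a had lowest, median and highest values of 12.6, 25.6 and 31.4 in 5 % CTRL, 29.1, 34.6 and 43.3 in 1 % CTRL, 20.3, 24.7 and 32.7 in 5 % STIM and 46.2, 63.0 and 89.5 in 1 % STIM, with a departure of 0.61 that did not pass the test (adjusted p = 0.165).

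For the members above each other group with the largest rises and a single RefSeq start, the upstream windows are printed with the CRE half-site, TGACG on either strand, in capitals. The Nr4a1 window is chr15:101266596-101266845 (plus strand), 12577 bases from the start of the gene in the annotation used for coordinates, and the Ppargc1a window is chr5:51567726-51567975 (minus strand).
Nr4a1: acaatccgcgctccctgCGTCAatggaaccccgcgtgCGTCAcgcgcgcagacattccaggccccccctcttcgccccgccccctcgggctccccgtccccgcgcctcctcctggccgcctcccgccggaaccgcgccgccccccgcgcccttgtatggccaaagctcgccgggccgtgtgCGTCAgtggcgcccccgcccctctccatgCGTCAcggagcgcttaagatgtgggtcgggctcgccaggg
Ppargc1a: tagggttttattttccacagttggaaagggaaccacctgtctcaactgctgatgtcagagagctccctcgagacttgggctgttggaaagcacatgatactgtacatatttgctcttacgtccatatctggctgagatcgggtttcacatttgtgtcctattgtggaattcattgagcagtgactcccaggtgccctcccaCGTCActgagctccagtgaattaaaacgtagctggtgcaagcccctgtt
The half-site occurs 4 times in the Nr4a1 window and 1 time in the Ppargc1a window. It was found in 75 % of the 12 windows of the list and in 27.0 % of the windows of all genes tested. Because the list names CREB targets, its share is not independent of how the members were chosen. Where TGACG is followed by TG the letters also hold the hypoxia response core, so the motifs are not independent.

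**Figure D4:**
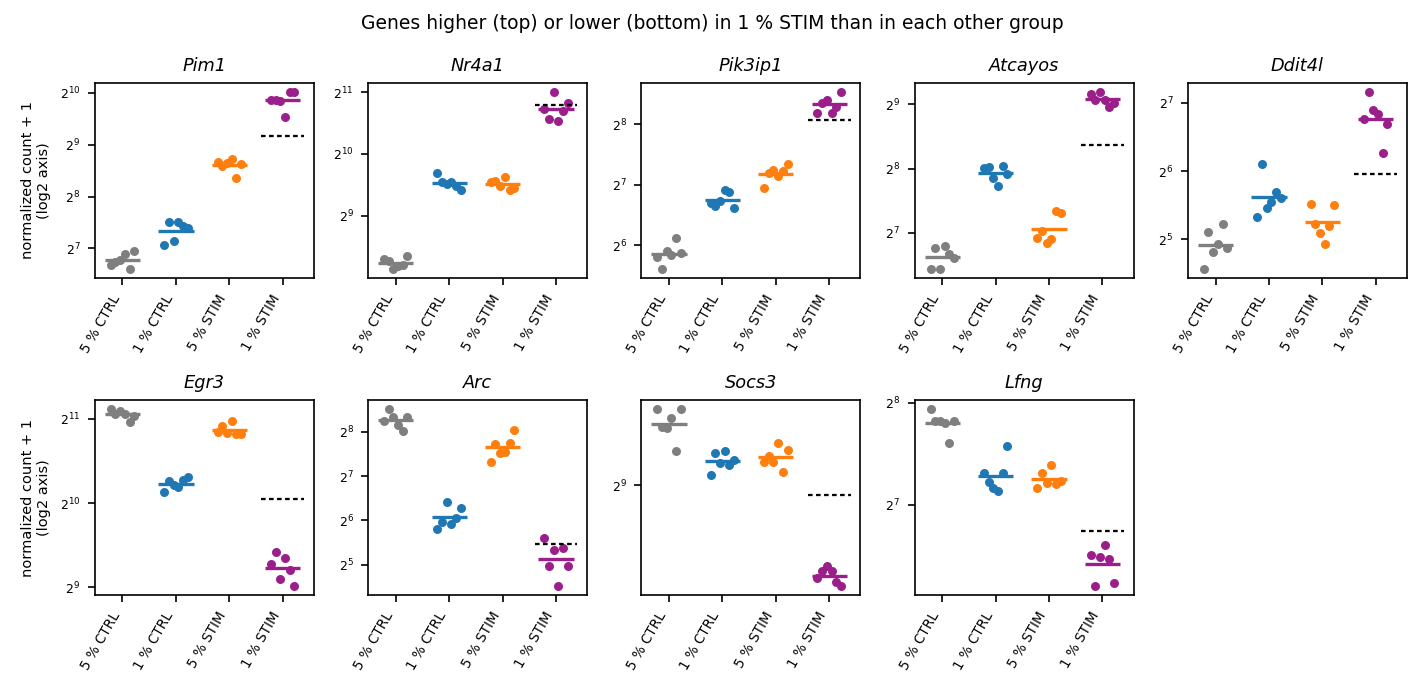
Normalized counts plus 1 of single libraries (y axis, log scale of base 2) are shown by group for genes that lay beyond each other group in 1 % STIM (top row above, bottom row below), with a bar at the group mean on the log2 scale and a dashed line at the level predicted by the sum. The 1 % STIM libraries of Pim1, at 738 to 1035, lie above the dashed line and those of Egr3, at 516 to 682, lie below it.

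Among genes below each other group, the early growth response factor gene Egr3 had lowest, median and highest values of 1990.0, 2136 and 2221 in 5 % CTRL, 1118, 1208 and 1266 in 1 % CTRL, 1810.0, 1827 and 2013 in 5 % STIM and 516, 601 and 682 in 1 % STIM. Hypoxia alone lowered it, stimulation alone lowered it slightly, and both lowered it further than their sum, without overlap between 1 % STIM and any other group (departure -0.82, SE 0.07, adjusted p = 1.19e-10). Arc had medians of 311, 63.4, 198 and 34.9 in the same order (log2 difference -3.13, SE 0.14, adjusted p = 3.66e-18; departure -0.33, 95 % interval -0.74 to 0.08, adjusted p = 0.315). On the linear scale the departure of Arc was called with the opposite sign (0.48 as a share of its mean, adjusted p = 0.0299). The cytokine signalling suppressor gene Socs3 fell by 1.12 (departure -0.60, SE 0.07, adjusted p = 2.41e-07). The Notch-modifying enzyme gene Lfng fell by 1.39, with a departure of -0.32 (adjusted p = 0.0736).

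Immediate early genes did not move as 1 group. Of 33 tested, 9 rose and 17 fell against baseline (median -0.30), with 4 above and 6 below each other group. Of all genes, 29.2 % rose and 29.7 % fell, so the share that rose was near that of all genes. Above and below each other group lay 3.16 % and 3.53 % of all genes. The rises included Nr4a1, Nr4a3, Ier3 (1.39; departure -1.26), Btg2 (1.15; departure 0.71) and Ppp1r15a (1.06). The falls included Egr1 (-1.40), Egr2 (-1.80) and the matricellular genes Ccn1 (-1.49) and Ccn2 (-2.0; 23.2 % of its exons opposite another gene). Fos was at -0.24 (adjusted p = 0.111). Feedback genes of the MAP kinase pathway and EGF-family ligands fell in 14 of 22 and rose in 7 (median -0.46), led by Errfi1, Phlda1 (-1.88; 33 % of its exons opposite another gene), Dusp5 (-1.72; 22.1 %) and Spry1 (-1.26). Errfi1, at a departure of -0.05, showed no called departure (adjusted p = 0.681), and Sox11 one of -0.50, SE 0.06, adjusted p = 8.07e-08; for both the sign turned on the linear scale, where Errfi1 was called above the sum (0.38 of its mean, adjusted p = 1.02e-05).

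For Angptl4 the exposures opposed each other. This secreted inhibitor of lipoprotein lipase, a PPAR target, had lowest, median and highest values of 5525, 6042 and 6242 in 5 % CTRL, 1391, 1673 and 1739 in 1 % CTRL, 10435, 10630.0 and 10920.1 in 5 % STIM and 5398, 5686 and 5867 in 1 % STIM. Hypoxia alone lowered it and stimulation alone raised it, and under both it overlapped with baseline (log2 difference -0.08, SE 0.04, adjusted p = 0.066), a difference that DESeq2 called. The departure lay above the sum (0.97, SE 0.05, adjusted p = 1.07e-14), but on the linear scale it was slightly below it. Otud1, a deubiquitinase gene, fell under each exposure alone and under both, by 0.81, and by less than the sum (departure 1.02, SE 0.10, adjusted p = 2.46e-09). The pyruvate dehydrogenase kinase gene Pdk4 rose by 0.42 (departure 0.66) and the carnitine transferase gene Cpt1a by 0.37 (departure 0.48), both above the sum. In the list of fatty acid oxidation and PPAR targets, 9 of 25 rose and 3 fell, against 29.2 % and 29.7 % of all genes. With equal totals 16 rose and 1 fell, against 6131 and 2968 of all 14541 genes. The list was led by the uncoupling protein gene Ucp3 (1.38) and the thioesterase gene Acot2 (0.61; departure -0.54, SE 0.18, adjusted p = 0.0461, lost in 12 of the 24 fits without 1 library). Among genes with a mean of 100 or more in a group, Vmn1r43 and the ribosomal pseudogene Rpl36a-ps3 were also among the 6 largest positive departures, at 0.75 and 2.30; 69.6 % of the windows of Rpl36a-ps3 occur in other genes and its departure was lost in 13 of those 24 fits, so it is uncertain.

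Genes that FoxO factors induce when insulin signalling is low rose more often than they fell, 11 against 3 of 19 (median 0.42). Of all genes, 29.2 % rose and 29.7 % fell. Stimulation alone raised 15 of the list and lowered 2, and 1 % O2 alone raised 8 and lowered 6. The departure lay above the sum in 5 and below it in 7, against 5.88 % and 5.43 % of all genes. Irs2, an insulin receptor substrate, had medians of 115, 252, 147 and 401 in 5 % CTRL, 1 % CTRL, 5 % STIM and 1 % STIM and lay above each other group (log2 difference 1.82, SE 0.08). So did the cell cycle inhibitor gene Cdkn1b (1.46), the atrophy ubiquitin ligase gene Fbxo32 (1.35), Sesn1 (1.3) and the autophagy gene Gabarapl1 (0.59). Txnip, an inhibitor of glucose uptake, was lower (-0.77).

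The stress lists held genes that rose and genes that fell. Of 19 heat shock chaperones, 9 rose and 6 fell against baseline (median 0.12; 13 and 3 with equal totals), but 8 lay above the sum and 0 below it. Of all genes, 5.88 % lay above the sum and 5.43 % below it. Dnajb1, a co-chaperone of HSP70, had lowest, median and highest values of 1591, 1665 and 1717 in 5 % CTRL and 2523, 2672 and 2759 in 1 % STIM and lay above each other group (log2 difference 0.68, SE 0.04, adjusted p = 2.23e-17). Hspa1a, with a departure of 1.26, and Hspa1b (0.65 against baseline) are near-identical copies that share 61.7 % and 55.8 % of their windows with other genes, and their counts are uncertain. The values of Hspa1b overlapped between the groups. In the unfolded protein and integrated stress response, 10 of 28 rose and 13 fell, against 29.2 % and 29.7 % of all genes. With equal totals 11 rose and 9 fell, against 6131 and 2968 of all 14541 genes. Trib3, a pseudokinase of that response, rose by 1.19 (departure -0.63, SE 0.10, adjusted p = 3.08e-05), and the endoplasmic reticulum chaperone gene Hspa5 fell by 0.44. NRF2 targets rose in 8 and fell in 9 of 27, in that order 12 and 7 with equal totals, shares near those of all genes (29.2 % higher and 29.7 % lower) on the authors' scale; Sesn2 rose by 1.06 and Osgin1 fell by 0.89.

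Of 26 genes of cholesterol synthesis and uptake, 14 rose and 3 fell against baseline, against 29.2 % and 29.7 % of all genes. With equal totals 18 rose and 3 fell, against 6131 and 2968 of all 14541 genes. In this list 12 lay below the sum and 0 above it, against 5.43 % and 5.88 % of all genes. Msmo1, a sterol demethylase, had lowest, median and highest values of 1750.4, 1811 and 1934 in 5 % CTRL, 2681, 2779 and 3024 in 1 % CTRL, 2886, 3027 and 3252 in 5 % STIM and 3497, 3655 and 4067 in 1 % STIM. It lay above each other group and below the sum (departure -0.34, SE 0.05, adjusted p = 2.57e-05), as did the sterol carrier gene Stard4 (1.34; departure -0.49).

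Of the 21 lists, nuclear genes of oxidative phosphorylation had the smallest share of called genes. Of all genes, 29.2 % rose and 29.7 % fell, or 6131 and 2968 of 14541 with equal totals. Of 80 subunit genes, 4 rose and 1 fell against 5 % CTRL (median 0.02). With equal totals 23 rose and 0 fell, lower shares than those of all genes, and with the length slope as a covariate 12 and 2. No departure was called with all libraries (median -0.15); without 1 % CTRL replicate 1, 21 lay below the sum and 1 above it (median -0.23), and with the length slope as a covariate the median was -0.01. The complex I genes Ndufa12 and Ndufv3 led at 0.35 and 0.32, with overlap between the groups, and the call of Ndufa12 was lost in 17 of the 24 fits without 1 library. Of 13 mitochondrially encoded genes, 9 fell and 0 rose (median -0.31), and with equal totals 7 fell and 0 rose. With 1 % O2 alone 8 of them already fell and 0 rose (median -0.34). Stimulation alone lowered 3 and raised 0, and stimulation at 1 % O2 lowered 1 and raised 1. Falls in 1 % STIM against 5 % CTRL were 0.88 for mt-Nd1, 0.71 for mt-Cytb and 1.05 for mt-Atp6. The windows of mt-Nd1 and mt-Cytb are not found in other genes, whereas 99.5 % of those of mt-Atp6 are, and its values overlapped between the groups. Other genes also hold 97.8 to 99.9 % of the windows of mt-Co2, mt-Co3, mt-Nd3 and mt-Nd4l. For mt-Nd4 the share is 61.5 % and for mt-Co1 39.8 %, so counts of these members are uncertain. Among 9 genes of mitochondrial Ca2+ uptake, 1 rose and 4 fell, against 29.2 % and 29.7 % of all genes. With equal totals 4 rose and 3 fell, against 6131 and 2968 of all 14541 genes. The pore gene Mcu was at 0.03 (adjusted p = 0.533), and its regulators Micu3 and Mcur1 fell by 0.33 and 0.25.

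Of 37 genes of the sarcomere and of excitation-contraction coupling, 2 rose and 17 fell (median -0.07), and with equal totals 6 rose and 9 fell. Of all genes, 29.2 % rose and 29.7 % fell, or 6131 and 2968 of 14541 with equal totals. The embryonic myosin gene Myh3 fell by 0.36 (departure 0.16, SE 0.05, adjusted p = 0.033, lost in 9 of the 24 fits without 1 library) and Stac3, an adaptor of the Ca2+ channel, by 0.38. The lower sum of myotube markers given above moved with this list, and its part in the result was not tested. Of 17 regulators of myogenesis and fusion, 4 rose and 10 fell, and with equal totals 6 rose and 6 fell. Myod1 had lowest, median and highest values of 3084, 3656 and 3684 in 5 % CTRL, 1491, 2051 and 2226 in 1 % CTRL, 2506, 2658 and 3081 in 5 % STIM and 1066, 1316 and 1531 in 1 % STIM, and Myog fell with it (-1.42 and -1.29 against baseline). Both were called lower than in each other group, with departures that did not pass the test (-0.22, 95 % interval -0.49 to 0.05, adjusted p = 0.305, and -0.11, 95 % interval -0.23 to 0.02, adjusted p = 0.287). The inhibitors of differentiation Id1 and Id2 were also lower (-2.31 and -1.29), while the early determination gene Myf5 (1.04) and Six4 (0.88) lay above each other group. Of 17 circadian genes, 9 rose and 5 fell, against 29.2 % and 29.7 % of all genes. Per2 fell by 1.40 and the repressor gene Ciart rose by 1.25, both with departures below the sum (-0.38 and -0.49).

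**Figure D5:**
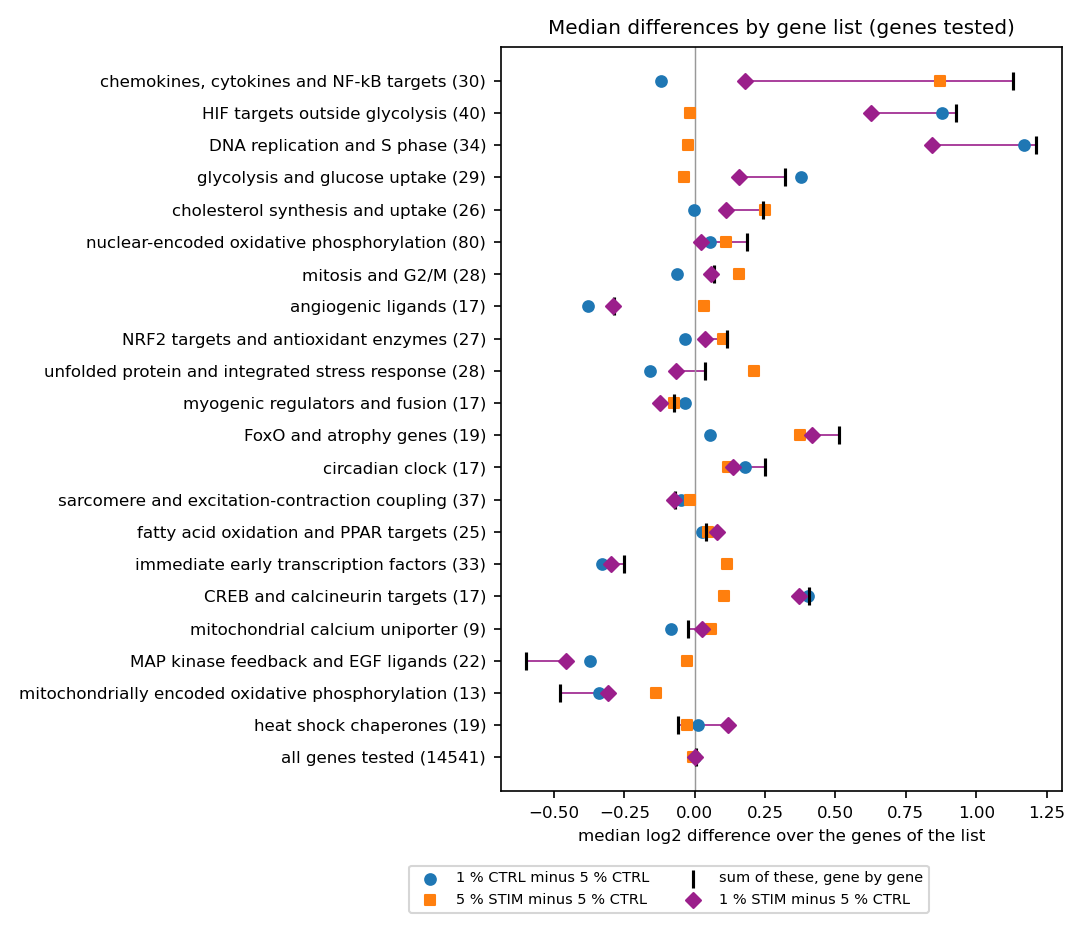
For each of the 21 gene lists and for all genes tested, markers give the median log2 difference from 5 % CTRL in 1 % CTRL (circles), 5 % STIM (squares) and 1 % STIM (diamonds) and the median of the sum of the single effects (bars). The widest gaps are those of the chemokine and NF-κB list, at 0.18 against a sum of 1.13, and of the DNA replication and HIF lists, where the combined median lies below that of the sum. The chemokine and NF-κB medians include the 5 members that passed the minimum count only through 5 % STIM. Without them the combined median was 0.13 and the median departure went from -1.17 to -0.61.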

How the data were processed

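RNA of C2C12 myotubes from 24 cultures (4 groups of 6, grouped by the sample labels) was sequenced by the authors from stranded mRNA libraries as single-end reads. Per the labels and the methods, reads were checked with FastQC 0.11.7, aligned to GRCm38 with STAR 2.5.4b and estimated per gene with RSEM 1.3.0 at its defaults, which do not use the strand. The annotation is not given in the sources used here. The authors deposited a signal per gene for 55487 genes without a filter, which is the count scaled by a DESeq2 size factor for each library. A second deposited table holds the authors' own 6 pairwise comparisons and was not used.

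Whole reads were recovered from the steps of the values (100 % whole within 0.01 reads) and gave 26541858 to 28173745 reads per library. The 14541 genes that reached a scaled count of 10 in 6 or more libraries, which held at least 99.9 % of the reads, were tested as log2(normalized count + 1) in a single limma fit of the 4 groups (limma 3.58.1, R 4.3.3; lmFit, contrasts.fit, eBayes with trend and robust; no block). Log2 differences therefore understate the change of genes with few reads. Contrasts were 1 % STIM minus each other group, each single effect, and the departure from their sum. Adjusted p-values are Benjamini-Hochberg over all genes tested, and intervals are 95 % intervals of this fit. The script was tested on simulated data. Replicates were separate cultures of 1 cell line.

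Genes named were the 10 largest rises and 8 largest falls, the 6 largest departures in each direction, the 2 largest differences of each list and the 5 genes furthest above and below the other groups, given a mean of 100 or more in the highest of the groups compared, without overlap between groups for the rises and falls, and without predicted-gene names. Other list members were named after their values were seen. Some genes that met these rules are not reported here. Members, lists and tests were chosen with earlier results of these data known. Motifs were sought on both strands of the 250 bases before each RefSeq start, for the 10524 tested genes (72.4 %) that matched the table by symbol. Coordinates were found for 55227 genes (99.5 %). Same-numbered libraries of 5 % CTRL and 1 % STIM did not deviate together (correlation -0.102 to 0.0894, 0 of 6 above 0.1). In 5 % CTRL with 5 % STIM and in 1 % CTRL with 1 % STIM, 1 of 6 was above 0.1, at 0.150 and 0.155. The medians there were -0.014 and -0.016, and differently numbered libraries reached 0.116 and 0.343. Replicate numbers were therefore not treated as pairs. Alternatives were edgeR 4.0.16, DESeq2 1.42.0 and voom on the whole reads, a pseudocount of 10, no filter, equal totals, a linear scale, array weights, the length slope as a covariate, a replicate block, 2 groups alone, an adjusted p of 0.01 and leaving out each library.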

Additional observations from a re-analysis of the deposited data

Results flagged for a closer look

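For 14 of 248 group tests over the named genes, 1 library lay apart from the other 5 of its group, that is, its gap to the nearest took more of the range than Dixon's 95 % critical value. Chance gives about 1 in 20. In 7 of them the library was 1 % CTRL replicate 1, the library in which abundance rose with gene length: Sesn2 at 563 (others 654 to 694), Ddit4 at 844 (others 1413 to 1600.5), Stard4 at 2153 (others 1689 to 1819), Ndufv3 at 874 (others 1219.6 to 1277), Myod1 at 1491 (others 1973 to 2226), Myog at 17829 (others 19378 to 20251) and Cdc6 at 788 (others 580.4 to 634). The other libraries were, in normalized counts, 5 % STIM replicate 4 for Cxcl1 at 4673 (others 2526 to 3328), 1 % CTRL replicate 5 for Zfp395 at 848 (others 924 to 965), 1 % CTRL replicate 6 for Vmn1r43 at 83.4 (others 105 to 116), 5 % STIM replicate 4 for Bcl3 at 159 (others 90.8 to 111), 5 % STIM replicate 6 for Sesn2 at 1062 (others 952 to 987), 5 % STIM replicate 1 for Ddit4 at 472 (others 432 to 443) and 1 % CTRL replicate 6 for Lfng at 190.0 (others 139 to 158).

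The response to stimulation differed between 1 % and 5 % O2, by the test of the difference itself, in 30 of the 62 named genes (limma, Benjamini-Hochberg adjusted p under 0.05), against 11.3 % of all genes tested. Of these genes, 12 were named for the size of this difference, so that their calls restate the choice; of the other 50, which were named for other large differences of the same libraries, 18 were called. It was higher at 1 % O2, as a log2 difference between the responses, in Rpl36a-ps3 (2.30), Otud1 (1.02), Angptl4 (0.97), Ddit4l (0.82), Vmn1r43 (0.75), Tnfrsf19 (0.72), Atcayos (0.71), Pim1 (0.68) and Myh3 (0.16). It was lower in Cxcl1 (-4.72), Ccl2 (-3.28), Cxcl5 (-3.28), Ccl7 (-2.32), Lif (-1.65), Bcl3 (-1.55), Ddit4 (-1.01), Slc2a3 (-0.99), Egr3 (-0.82), Trib3 (-0.63), Socs3 (-0.60), Cdc6 (-0.56), Acot2 (-0.54), Zfp395 (-0.50), Sox11 (-0.50), Stard4 (-0.49), Ciart (-0.49), Apln (-0.40), Per2 (-0.38), Adm (-0.37) and Msmo1 (-0.34). The chemokines Cxcl1, Cxcl5, Ccl2 and Ccl7 and the NF-κB partner Bcl3 kept calls below the sum in all fits that left out 1 library. Counts of Rpl36a-ps3 are uncertain, since its sequence occurs in other genes.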

How the results depend on the processing

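With an adjusted p threshold of 0.01, 830 departures from the sum, 1944 genes of stimulation alone and 644 genes beyond each other group were called, in place of 1645, 3115 and 973. Leaving out 1 library in turn gave 8270 to 8788 genes for combined exposure against baseline, 1343 to 2316 departures (2316 without 1 % CTRL replicate 1), 878 to 1146 genes beyond each other group, 8378 to 8955 for 1 % O2 alone, 2666 to 3469 for stimulation alone, 2893 to 3748 for stimulation at 1 % O2 and 8075 to 8576 for 1 % O2 with stimulation. The paired fit, with a replicate block, called 8589, 1710 and 993 genes for combined exposure, departures and genes beyond. DESeq2 called 1848 departures and edgeR 1660. On the linear scale the departure turned its sign for Arc (0.48), Errfi1 (0.38), Sox11 (0.018), Angptl4 (-0.10), Pfkfb3 (-0.31) and Nr4a1 (0.62), as a share of the gene's mean, and 1381 departures were called. With equal totals the higher share of calls went from 49.6 % to 67.4 % for combined exposure and from 47.2 % to 66.7 % for genes beyond each other group. The cause of these shifts was not tested. Depth limits genes with few reads: the call of Cxcl2 and Ccl20 in 1 % STIM rests on at most 3 reads a library.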
